A study of Rattus norvegicus with 12 samples.

Results

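The genes described here are 40 genes of protein folding in the endoplasmic reticulum (ER) and of the unfolded protein response. They were chosen by gene symbol from the deposited gene table, which held 16002 gene IDs after repeated rows were resolved. All 40 were in the table, and all 40 were among the 11398 genes with enough counts to be tested. Ddit3, a further gene of this response, was left out because its gene ID had rows with differing control values.

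The study sequenced polyadenylated RNA from H9C2, a cell line of myoblasts first grown from rat heart, in 3 groups of 4 libraries. Cells of the LITAF group carried a lentiviral vector overexpressing LITAF, a small membrane protein of endosomes and lysosomes, and were then held at 1% oxygen for 8 h and reoxygenated for 2 h. Cells of the H/R group, labelled wild type, carried an empty lentiviral vector and went through the same hypoxia and reoxygenation. Control cells, also labelled wild type, had no vector and stayed at normal oxygen. The question of the series is what LITAF overexpression changes in cells after hypoxia and reoxygenation, and the LITAF and H/R groups address it. A comparison with control holds the vector and the oxygen change together, and these cannot be told apart. The labels name no promoter for the vector and no clone.

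Proteins that enter the secretory pathway fold in the ER with the help of chaperones, lectins and disulfide isomerases, and those that fail are pulled back to the cytosol for degradation. When unfolded proteins build up, the membrane sensors IRE1, ATF6 and PERK start the unfolded protein response, which raises folding and degradation capacity and slows translation. IRE1 splices the mRNA of the transcription factor XBP1, a step that gene counts do not show, and heart muscle cells are known to mount this response after loss and return of oxygen.

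The element through which ATF6 and XBP1 are known to act, the ER stress response element (ERSE), is CCAAT, then 9 bases, then CCACG, and its relative ERSE-II is ATTGG, then 1 base, then CCACG. Both were searched on both strands in RefSeq promoter windows of the rat build GRCr8, from 250 bases before to 50 bases after each gene start. A window was given once for 31 of the 40 genes. Of these 31, 9 held a full ERSE (29.0%), against 15 of all 12021 genes of the table with 1 window (0.125%), a share that includes the 9. ERSE-II was in 2 of the 31 (6.45%), Herpud1 and Dnajb11, against 10 of the 12021 (0.0832%). The letters CCACG alone were in 26 of the 31 (83.9%) and in 43.7% of all these windows. The letters TGACGTGG, an XBP1 element, were found in 1 of the 31, Dnajc10 (3.23%, against 0.84% of all windows), and the ATF4 element TGATGCAAT was in none of the 31 (0.175% of all windows). A match is a description of the letters and not a shown binding site. The 40 genes were chosen for ER folding and the unfolded protein response, and how far that choice sets these shares was not tested.

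Stretches with a match are printed because the genes that hold them run from the largest rise among the 40 genes to a gene that did not pass the test. For Hspa5 the 250 bases before the gene start are shown, chr3:38452766-38453015 on the plus strand, with the 2 motif parts of the ERSE in capitals. It lies at -43 to -25, where the base before the gene start is -1.

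Hspa5: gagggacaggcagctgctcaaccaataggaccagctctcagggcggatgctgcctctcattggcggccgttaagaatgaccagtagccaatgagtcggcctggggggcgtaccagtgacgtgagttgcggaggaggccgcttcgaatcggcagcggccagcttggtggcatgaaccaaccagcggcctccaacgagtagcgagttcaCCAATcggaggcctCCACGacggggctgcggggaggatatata

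For most of the other genes the match is shown with 10 bases on each side, 5′ to 3′ along the gene, with the 2 motif parts in capitals. Where the element lies on the opposite strand the capitals read CGTGG and then ATTGG. They are Xbp1 (chr14:84604548-84604586, plus strand), Creld2 (chr7:121789229-121789267, plus strand), Dnajc3 (chr15:102432524-102432562, plus strand), Ero1b (chr17:92941448-92941486, plus strand), Calr (chr19:40213125-40213163, plus strand) and Derl3 (chr20:12766591-12766629, minus strand). Hsp90b1 held 2 elements, 1 on each strand, within chr7:23012337-23012479 on the minus strand. Herpud1 held the ERSE-II, chr19:10614811-10614841 on the minus strand.

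Xbp1: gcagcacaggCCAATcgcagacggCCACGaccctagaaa
Creld2: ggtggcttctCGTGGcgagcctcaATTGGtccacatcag
Dnajc3: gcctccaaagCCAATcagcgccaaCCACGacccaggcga
Ero1b: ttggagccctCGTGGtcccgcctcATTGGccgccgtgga
Calr: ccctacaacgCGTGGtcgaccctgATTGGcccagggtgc
Derl3: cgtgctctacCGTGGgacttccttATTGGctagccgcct
Hsp90b1: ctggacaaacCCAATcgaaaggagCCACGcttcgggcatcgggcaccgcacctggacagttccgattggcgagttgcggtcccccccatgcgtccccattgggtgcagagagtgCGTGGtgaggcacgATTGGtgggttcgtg
Herpud1: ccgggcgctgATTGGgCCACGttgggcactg

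Library totals were 17.2 to 18.4 M counts for LITAF, 16.9 to 18.1 M for H/R and 19.2 to 20.7 M for control. Litaf itself stood at 2338 ± 326 CPM (counts per M, scaled by the TMM method) in the LITAF group, 585 ± 30.0 CPM in the H/R group and 473 ± 17.9 CPM in control (SD, n = 4 each), so it was higher in the group labelled as overexpressing. Of the deposited values, 11.6 to 12.3% in the LITAF libraries and 11.1 to 12.0% in the H/R libraries were not whole numbers, against 2.79 to 3.34% in the control libraries. Any different treatment of the control columns before deposit and the response to H/R cannot be told apart. Summed CPM of 6 skeletal myoblast markers was 501 to 565 in LITAF libraries, 507 to 641 in H/R libraries and 2200 to 6450 in control libraries. Most of that difference lay in Myog, a factor of muscle differentiation, with means of 32.0, 14.1 and 3870 CPM in the same order of groups. Myod1, at 99.79, 88.03 and 258.2 CPM, and Cdh15, at 376.9, 436.9 and 522.3 CPM, were also highest in control. Des, on the same list, was lowest in control, at 15.195, 12.969 and 3.695 CPM. Myf5 and Chrna1 had means under 1 CPM in every group. Of 6 cardiomyocyte markers, Tnnt2 alone had a mean of at least 1 CPM. The 6 summed to 133 to 187 CPM in LITAF, 43.1 to 79.6 CPM in H/R and 168 to 405 CPM in control libraries, and Nppa, like the myoblast marker Myf5, was at 0 in every control library. The 5 mesenchymal markers summed to 29000 to 37500 CPM in LITAF, 25900 to 28800 CPM in H/R and 54200 to 71400 CPM in control libraries. Col1a1 and Col1a2 made up most of these sums, with means of 16132, 12568 and 34782 CPM and of 14108, 10901 and 27555 CPM in the same order of groups. Vim went the other way, at 2710, 3044 and 1003 CPM. Thy1 was at 225, 224 and 254 CPM, and S100a4 at 326, 314 and 357 CPM. Endothelial and leukocyte markers, 3 of each, all had means under 1 CPM in every group, and Cdh5 and Kdr were at 0 in every LITAF and control library.

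After hypoxia and reoxygenation with the empty vector, genes of ER folding were higher than in control, with at least 1 gene rising in each of the 9 roles described below. Of the 40 genes, 33 rose in the H/R group, 1 fell and 6 did not pass the test, where 63.6% of all genes tested passed, 31.8% higher and 31.8% lower. At least 2-fold rises numbered 25 among the 40, against 9.57% of all genes, and at least 4-fold rises 11, against 1.44%. The 40 genes were chosen with earlier results of these data known, and the part of this excess that comes from the choice was not tested. The median log2 fold change was 1.21 over the 40 genes and 0.01 over all genes tested. CPM of the H/R libraries lay wholly above control for 31 of the 40 and wholly below for 1, where 58.6% of all genes did not overlap, 30.2% above and 28.3% below. Together the 40 genes took 2.00 to 2.21% of all counts in H/R libraries and 0.612 to 0.695% in control libraries. With library totals or upper-quartile scaling the median of all genes moved up by 0.13 or 0.12 (log2), and 34 of the 40 genes were called higher with either. This test, here and below, is edgeR's quasi-likelihood test with Benjamini-Hochberg adjustment over the whole table of tested genes and a threshold of 0.05. Its model does not use the replicate numbers, which paired H/R with control libraries. With the number as a block over all 12 libraries, LITAF libraries included, 32 of the 40 genes were called higher in the H/R group and 1 lower. In bulk RNA, fewer cells of a type and less RNA per cell cannot be told apart, and the part of the muscle marker difference in these results was not tested. The sample titles call the replicates biological, but the labels do not say whether they were separate cultures. A p-value here therefore speaks only for the spread among these libraries, and how much of that spread is technical is not known.

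**Figure D1:**
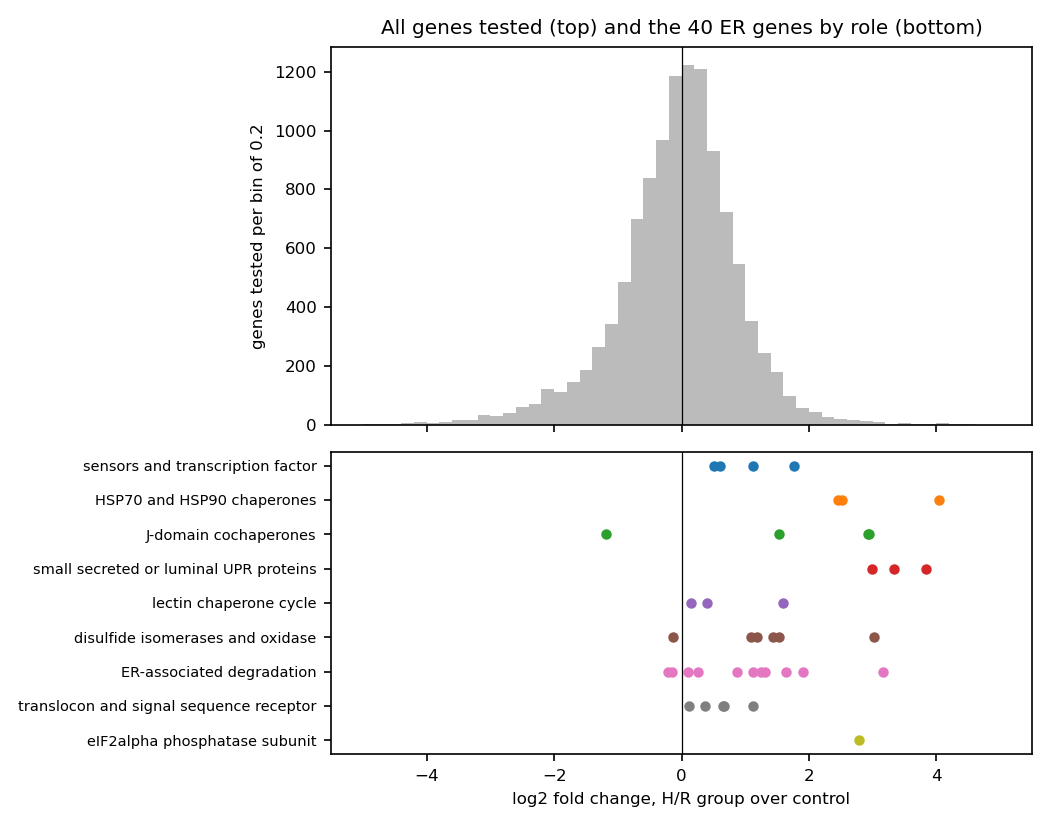
The upper plot counts all genes tested by their log2 fold change, H/R group over control, in bins of 0.2, with 15 genes outside the axis range. The lower plot shows each of the 40 genes as a point in the row of its role; the 3 HSP70 and HSP90 chaperones and the 3 small proteins all lie above 2, and Dnajc10 is the 1 gene that lies near -1.

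All 4 genes of sensing and its transcription factor rose in the H/R group, with a median log2 fold change of 0.86. Xbp1, the transcription factor whose mRNA IRE1 splices, had 198, 216, 213 and 215 CPM in LITAF libraries 1 to 4 and 188, 199, 208 and 210.02 CPM in H/R libraries, against 61.3, 57.5, 57.6 and 60.5 CPM in control libraries. The 4 control libraries lay far below the other 8, which overlapped with each other. Its rise in the H/R group over control was log2 1.77 ± 0.09 (SE; adjusted p = 6.58e-11 by edgeR). Atf6, the sensor that is cut in the Golgi to release a transcription factor, had 224, 152, 168 and 167 CPM in LITAF libraries 1 to 4 and 159.7, 163, 170.3 and 189 CPM in H/R libraries, against 79.1, 75.1, 79.4 and 81.1 CPM in control libraries. LITAF library 1 was the highest of all, and the 4 control libraries were the lowest. Atf6 rose in the H/R group by log2 1.12 ± 0.12 (SE; adjusted p = 3.92e-07 by edgeR). Ern1, which encodes the sensor IRE1, had 33.5, 22.9, 27.1 and 26.2 CPM in LITAF libraries 1 to 4 and 23.7, 23.4, 25.3 and 26.8 CPM in H/R libraries, against 12.4, 15.2, 18.6 and 19.3 CPM in control libraries. Its LITAF libraries 2 to 4 lay within or near the H/R range and library 1 above it. The rise over control was log2 0.60 ± 0.15 (SE; adjusted p = 0.0019 by edgeR). Eif2ak3, which encodes the sensor PERK, had 30.1, 30.5, 28.6 and 27.2 CPM in LITAF libraries 1 to 4 and 30.9, 31.0, 29.5 and 30.3 CPM in H/R libraries, against 22.0, 23.8, 20.9 and 19.0 CPM in control libraries. It had the smallest rise of the 4, log2 0.50 ± 0.10 (SE; adjusted p = 0.000302 by edgeR).

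Among the chaperones of the HSP70 and HSP90 families, Hspa5 had the largest rise of all 40 genes. Hspa5 encodes BiP, the main HSP70 of the ER, which also holds the sensors inactive in unstressed cells. It had 2284, 1967, 1899 and 1948 CPM in LITAF libraries 1 to 4 and 1650.5, 1702, 1866 and 1893 CPM in H/R libraries, against 88.3, 98.8, 125 and 121 CPM in control libraries. The control libraries lay far below every library of the other groups. This is a 16.4-fold rise in the H/R group over control, log2 4.04 ± 0.13 (SE; adjusted p = 1.17e-12 by edgeR). The gene carries the ERSE shown above close to its start. Hsp90b1, the HSP90 of the ER, had 7797, 6893, 7181 and 6829 CPM in LITAF libraries 1 to 4 and 6308, 4320.4, 5963 and 5414 CPM in H/R libraries, against 1233, 703, 904 and 994 CPM in control libraries. Its rise over control was 5.74-fold, log2 2.52 ± 0.16 (SE; adjusted p = 9.17e-10 by edgeR). Hyou1, an exchange factor that releases nucleotide from BiP, had 701, 819.5, 909 and 982 CPM in LITAF libraries 1 to 4 and 751, 954, 911 and 991 CPM in H/R libraries, against 127, 172, 129 and 227 CPM in control libraries. It rose 5.51-fold, log2 2.46 ± 0.17 (SE; adjusted p = 4.73e-09 by edgeR), with control library 4 the highest control and still below every H/R library.

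The J-domain proteins, which bring substrates to BiP, held the 1 gene that fell. Dnajc3, an ER cochaperone, had 113, 84.2, 98.1 and 100.03 CPM in LITAF libraries 1 to 4 and 114, 121, 124 and 123 CPM in H/R libraries, against 13.3, 14.6, 15.3 and 19.5 CPM in control libraries, and it rose 7.69-fold over control, log2 2.94 ± 0.13 (SE; adjusted p = 2.11e-11 by edgeR). Dnajc10, a J-domain protein that is also a disulfide reductase for degradation substrates, had 101, 69.6, 96.9 and 79.9 CPM in LITAF libraries 1 to 4 and 102, 106, 105 and 90.5 CPM in H/R libraries, against 271, 235, 218 and 196 CPM in control libraries. All 8 libraries with a vector lay below all 4 control libraries. It fell by 1.19 on the log2 scale in the H/R group (SE 0.13, adjusted p = 6.95e-07 by edgeR). Dnajb9 and Dnajb11 rose by log2 2.92 and 1.53.

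All 3 small proteins of the response rose, with a median log2 fold change of 3.34. Creld2, a luminal protein with a role in folding, had 61.7, 75.3, 70.7 and 71.4 CPM in LITAF libraries 1 to 4 and 81.0, 85.8, 91.3 and 89.0 CPM in H/R libraries, against 5.56, 5.45, 7.31 and 5.99 CPM in control libraries. The rise in the H/R group was 14.3-fold, log2 3.83 ± 0.12 (SE; adjusted p = 1.17e-12 by edgeR). Manf, a small secreted protein that binds BiP, had 77.5, 99.0, 88.8 and 92.4 CPM in LITAF libraries 1 to 4 and 85.1, 95.8, 103 and 88.6 CPM in H/R libraries, against 7.65, 12.9, 15.6 and 10.7 CPM in control libraries. Its rise was log2 2.99 ± 0.17 (SE; adjusted p = 3.93e-10 by edgeR). Sdf2l1, a partner of Dnajb11 in a chaperone complex, lay between them with a rise of log2 3.34.

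In the lectin cycle, which folds glycoproteins, 2 of 3 genes rose. Calr, the soluble lectin calreticulin, had 2173, 2746, 2292 and 2535 CPM in LITAF libraries 1 to 4 and 2327, 2424, 2505 and 2541 CPM in H/R libraries, against 799, 824, 804 and 808 CPM in control libraries. The control libraries lay close together and far below the others, and the rise was 3.03-fold, log2 1.60 ± 0.09 (SE; adjusted p = 3.8e-10 by edgeR). Canx, the membrane lectin calnexin, rose by log2 0.40 ± 0.14 (SE; adjusted p = 0.0167 by edgeR). That call was lost without control library 4 (log2 0.32, adjusted p = 0.0554 by edgeR). Uggt1, which marks unfolded glycoproteins for another round, had 187, 153, 170.2 and 165 CPM in LITAF libraries 1 to 4 and 157, 152, 158 and 158 CPM in H/R libraries, against 145, 130.4, 134 and 155 CPM in control libraries. The H/R and control ranges overlapped, and the difference was log2 0.15 with a 95% interval of -0.05 to 0.34. With library totals or upper-quartile scaling it passed as higher (log2 0.27 and 0.26, adjusted p = 0.0198 and 0.0215 by edgeR).

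Of the disulfide isomerases and their oxidase, 5 of 6 rose. Ero1b, the oxidase that recharges the isomerases, was a gene of few reads and had 11.3, 5.46, 7.15 and 6.80 CPM in LITAF libraries 1 to 4 and 8.41, 8.61, 9.76 and 10.4 CPM in H/R libraries, against 0.714, 1.11, 1.34 and 1.40 CPM in control libraries. The rise was 8.12-fold, log2 3.02 ± 0.24 (SE; adjusted p = 1.93e-08 by edgeR). P4hb, Pdia3, Pdia4 and Pdia6, all disulfide isomerases, rose by log2 1.09 to 1.53. Txndc5, another isomerase, had 362, 454, 399 and 429 CPM in LITAF libraries 1 to 4 and 372, 386, 370.1 and 359.7 CPM in H/R libraries, against 397, 348, 383 and 496 CPM in control libraries. All 3 ranges overlapped, and the H/R minus control difference was log2 -0.13 with a 95% interval of -0.36 to 0.11.

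Of 11 genes of ER-associated degradation, 8 rose and 3 did not pass, with a median log2 fold change of 1.12. Herpud1, which organises the ubiquitin ligase complex and carries the ERSE-II shown above, had 515, 522, 471 and 489 CPM in LITAF libraries 1 to 4 and 390.04, 406, 422 and 482 CPM in H/R libraries, against 34.8, 58.0, 40.5 and 56.9 CPM in control libraries. It rose 8.95-fold, log2 3.16 ± 0.15 (SE; adjusted p = 5.21e-11 by edgeR). Sel1l and Syvn1, the core of that ligase, rose by log2 1.90 and 1.64. Derl1, Derl2 and Os9 rose by log2 1.12 to 1.31; the first pair are membrane proteins of the exit channel and Os9 is a lectin that selects glycoproteins. The 3 Edem genes encode mannosidase-like proteins that direct misfolded glycoproteins to degradation. Edem1 had 176, 152, 165 and 165 CPM in LITAF libraries 1 to 4 and 135, 132, 142 and 135 CPM in H/R libraries, against 76.4, 77.1, 77.7 and 64.9 CPM in control libraries, 3 separate ranges with the LITAF group on top, and rose by log2 0.88 ± 0.09 (SE; adjusted p = 4.93e-07 by edgeR) in H/R over control. Edem2 rose by log2 0.26 ± 0.11 (SE; adjusted p = 0.0462 by edgeR) with overlapping libraries, and the call was lost with the replicate number as a block (adjusted p = 0.0605). It was also lost with RLE scaling, with DESeq2 and with no filter or a stricter one (adjusted p = 0.0519 to 0.0674), and without any 1 of control libraries 2, 3 and 4 or H/R libraries 2, 3 and 4 (adjusted p = 0.0664 to 0.122). Edem3 had 63.0, 27.3, 47.7 and 39.2 CPM in LITAF libraries 1 to 4 and 42.8, 42.0, 49.1 and 44.9 CPM in H/R libraries, against 55.7, 50.8, 62.4 and 38.4 CPM in control libraries. LITAF library 1 was the highest and LITAF library 2 the lowest of the 12, and the H/R minus control difference was log2 -0.21 (95% interval -0.63 to 0.20). Erlec1, a lectin like Os9, and Derl3, with means of 0.528 to 0.623 CPM per group, also did not pass.

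At the translocon, the channel through which new proteins enter the ER, 4 of 5 genes rose, with a median log2 fold change of 0.64 over the 5. Sec61a1, the channel subunit, had 531, 660.5, 549 and 616 CPM in LITAF libraries 1 to 4 and 594, 609, 598 and 593 CPM in H/R libraries, against 302, 306, 249 and 248 CPM in control libraries. It rose 2.17-fold, log2 1.12 ± 0.10 (SE; adjusted p = 1.07e-07 by edgeR). Sec61b and Ssr2 rose by log2 0.64 and 0.66. Ssr3 rose by log2 0.37 ± 0.15 (SE; adjusted p = 0.0348 by edgeR), which was lost without control library 4 and without H/R library 1, 2 or 3 (adjusted p = 0.0602 to 0.11). Ssr1, like Ssr2 and Ssr3 a subunit of the signal sequence receptor beside the channel, had 205, 167, 198 and 193 CPM in LITAF libraries 1 to 4 and 207, 213, 216 and 183 CPM in H/R libraries, against 173, 154, 198 and 227 CPM in control libraries. The ranges overlapped and the difference was log2 0.12 with a 95% interval of -0.13 to 0.37. Ppp1r15a encodes GADD34, which brings a phosphatase to eIF2α and so lets translation resume. It had 500.2, 452, 524 and 576 CPM in LITAF libraries 1 to 4 and 520.5, 414, 409.6 and 459 CPM in H/R libraries, against 93.1, 48.7, 60.4 and 59.8 CPM in control libraries, with control library 1 the highest control. It rose 6.88-fold, log2 2.78 ± 0.17 (SE; adjusted p = 7.51e-10 by edgeR).

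**Figure D2:**
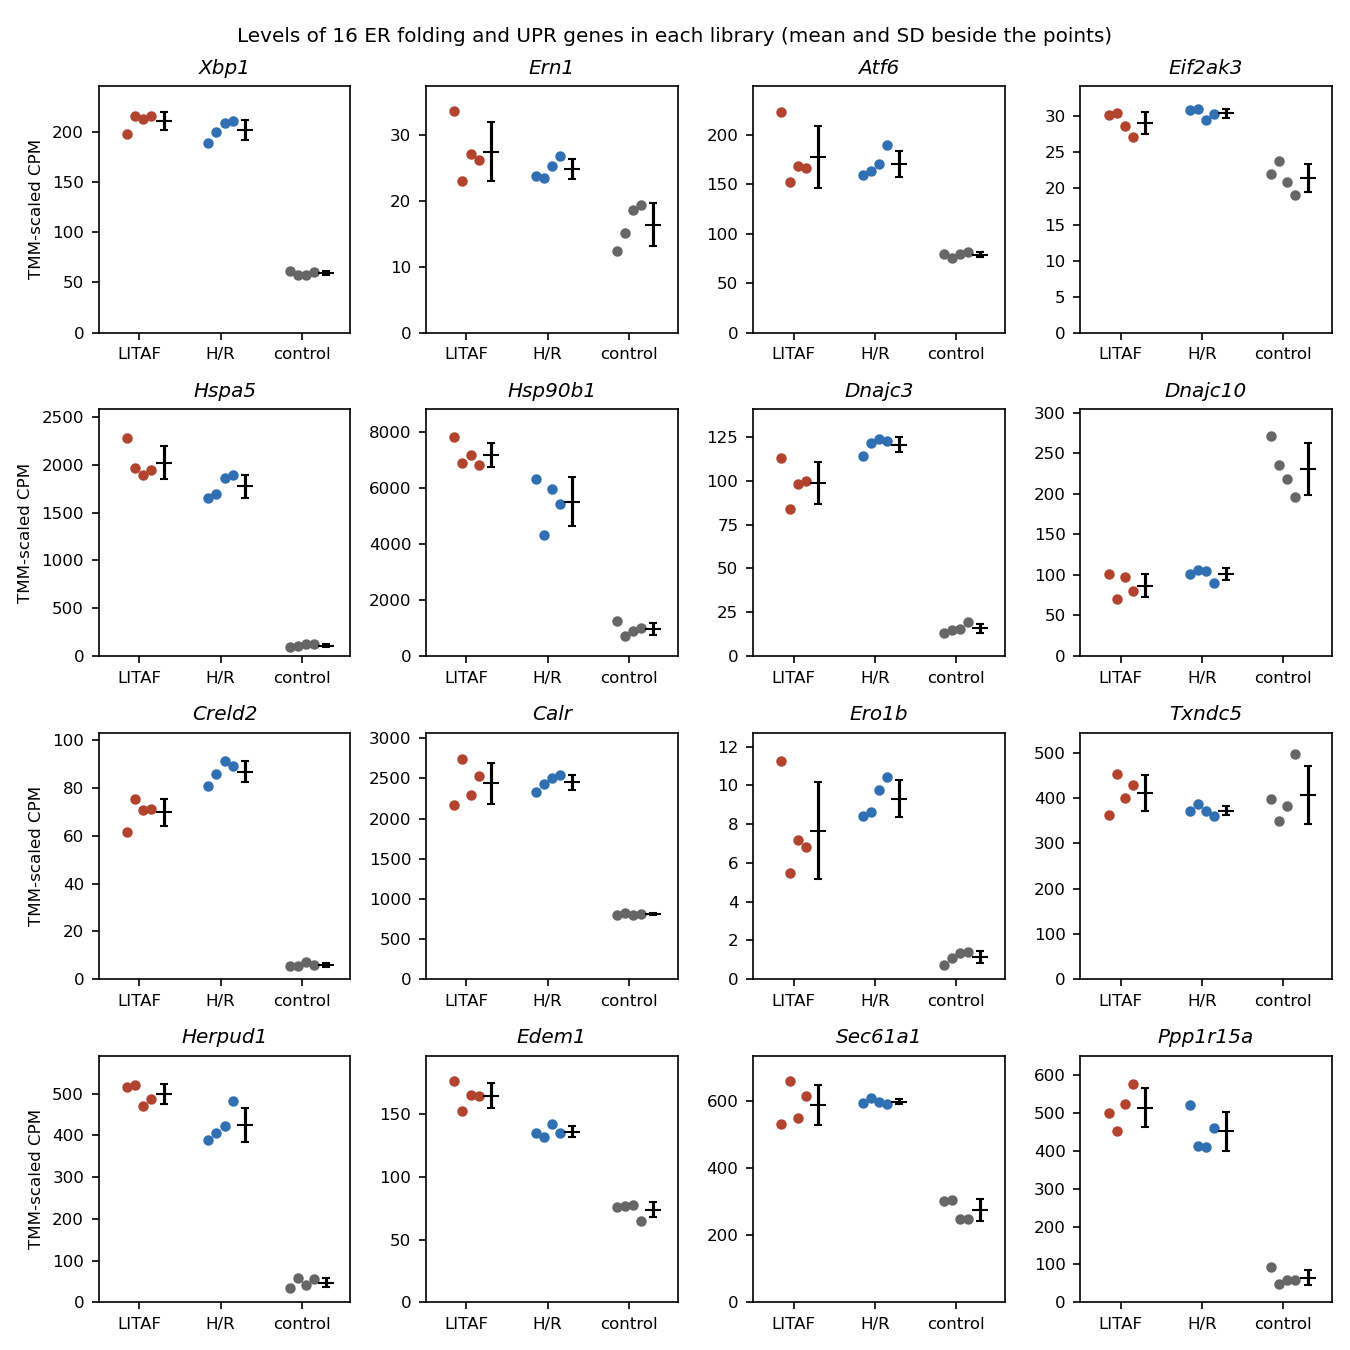
TMM-scaled CPM of 16 genes, with 1 point per library in the LITAF, H/R and control groups (libraries 1 to 4 from left to right) and the mean with its SD beside the points; each vertical axis starts at 0. The LITAF and H/R libraries lie nearer to each other than to control for most genes. Their ranges do not overlap for Hspa5, Hsp90b1, Dnajc3, Creld2 and Edem1. Ern1 and Eif2ak3 lie less far from control, Txndc5 has no separation between groups and Dnajc10 is highest in control.

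The size of the rise was set beside the promoter letters without a test. Of the genes with 1 window that rose at least 2-fold in the H/R group, 7 of 17 held an ERSE (41.2%), and of the others 2 of 14 did (14.3%). The 7 were Hspa5, Creld2, Ero1b, Dnajc3, Hsp90b1, Xbp1 and Calr, with rises of log2 1.60 to 4.04. The 2 include Derl3, which did not pass at log2 -0.15. Of the 31, the 2 genes with an ERSE-II, Herpud1 and Dnajb11, rose by log2 3.16 and 1.53. Genes with neither element in the window include Sdf2l1, at log2 3.34, and Ppp1r15a, at log2 2.78. No window was given for Ern1, Atf6, Manf, Pdia3, Pdia6, Derl1, Os9 and Sec61a1, and Hyou1 had 2, which are not in these shares. Of the Hyou1 windows, 1 held 2 ERSE-II matches, at -188 to -178 and -88 to -78, and the letters TGACGTGG at -191 to -184. Hyou1 rose by log2 2.46.

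With LITAF overexpressed, none of the 40 genes passed the test against the H/R group. Of all genes tested, 4.88% passed, 3.73% higher and 1.15% lower in the LITAF group, a split of 425 and 131 that became 320 and 205 with library totals in place of TMM scaling. At an unadjusted p under 0.05, 2 of the 40 were higher (Hsp90b1 and Edem1) and 2 lower (Dnajc3 and Creld2), where 11.3% and 8.76% of all genes were. DESeq2 called 1 of the 40, Edem1. The median log2 fold change was -0.01 over the 40 genes, the same as over all genes, with a range of -0.31 (Creld2) to 0.38 (Hsp90b1). Over the 40 genes the 95% intervals ran at the widest from -0.76 (Derl3) to 0.70 (Hsp90b1), so no interval reached a 2-fold change in either direction. Groups did not overlap for 7 of the 40, 4 higher in the LITAF group and 3 lower, where 18.9% of all genes did not overlap, 10.6% higher and 8.3% lower.

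The folding genes nearest to the threshold went in both directions. Edem1, with the values given above, was higher in 4 of 4 LITAF libraries than in every H/R library, at log2 0.28 ± 0.09 (SE; adjusted p = 0.0968 by edgeR). It passed in the fit of these 2 groups alone and with DESeq2 (adjusted p = 0.0247 and 0.019). Creld2 was lower in 4 of 4 LITAF libraries, at log2 -0.31 ± 0.10 (SE; adjusted p = 0.097 by edgeR), and passed in the fit of the 2 groups alone (adjusted p = 0.0309). Hsp90b1 was 6829 to 7797 CPM in LITAF libraries and 4320 to 6308 CPM in H/R libraries, with H/R library 2 the lowest (log2 0.29 without it), at log2 0.38 ± 0.15 (SE; adjusted p = 0.155 by edgeR). Hspa5 did not pass, at log2 0.19 (adjusted p = 0.386 by edgeR) with a 95% interval of -0.05 to 0.43, its lowest LITAF library at 1899 CPM and its highest H/R library at 1893 CPM. Dnajc3 was at log2 -0.29 ± 0.12 (SE; adjusted p = 0.186 by edgeR). The 4 sensor and Xbp1 genes lay between log2 -0.06 and 0.15, and Ppp1r15a at 0.19 with a 95% interval of -0.15 to 0.52. The 40 genes took 2.25 to 2.35% of counts in LITAF libraries and 2.00 to 2.21% in H/R libraries. Without Hsp90b1 those shares were 1.53 to 1.57% and 1.51 to 1.61%.

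**Figure D3:**
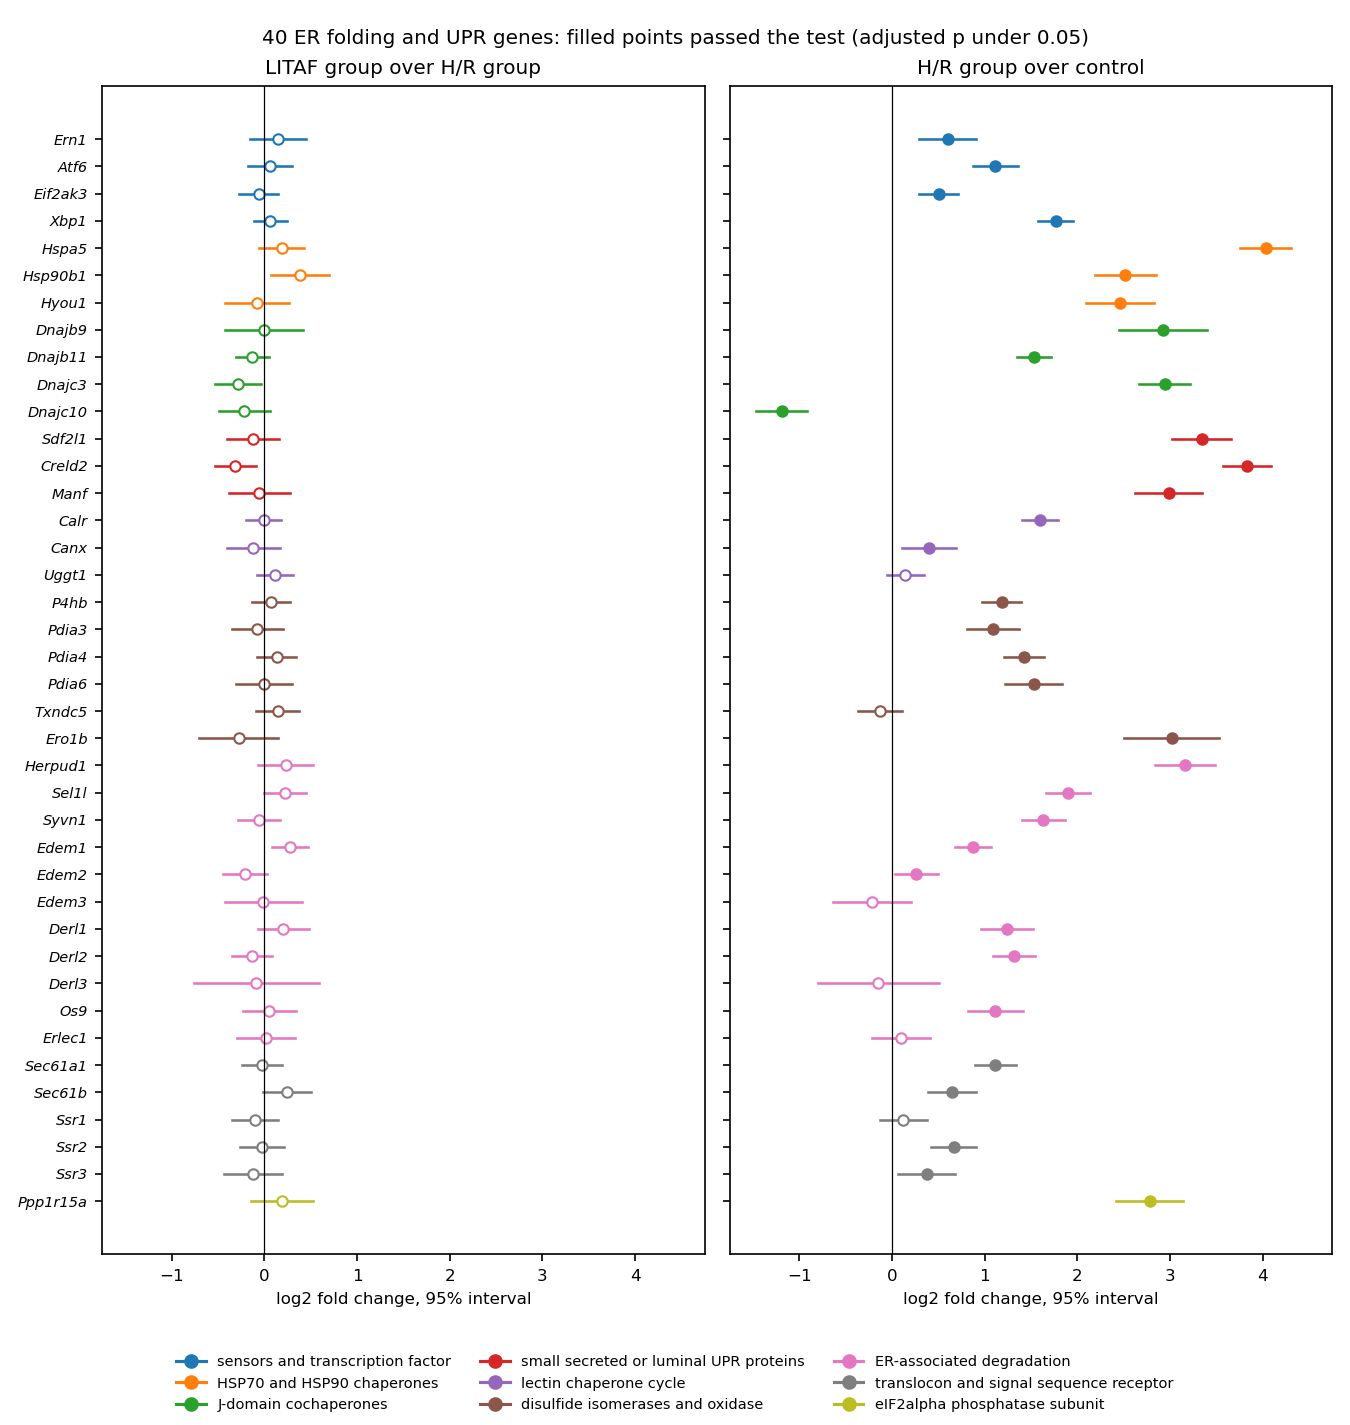
Log2 fold change of each of the 40 genes with its 95% interval, LITAF group over H/R group on the left and H/R group over control on the right, on the same scale and coloured by role. Filled points passed the test; none is filled on the left, and 34 are filled on the right, of which Dnajc10 alone is below 0.

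Within the LITAF group, libraries 1 and 2 stood at opposite ends. For 15 of the 40 genes library 1 was the highest and library 2 the lowest of the 4, and for 15 the order was reversed. The 30 genes make up 75% of the 40, against 53.7% of all genes tested, and all are set by the same 2 libraries. Log2 CPM of library 1 minus library 2 was 1.23 for Dnajb9, 1.20 for Edem3, 1.03 for Ero1b, 0.70 for Canx and 0.60 for Ssr3. In the other direction it was -0.58 for Ssr2, -0.48 for Sdf2l1, -0.35 for Manf and -0.34 for Calr. The SD over the 40 genes of a library's deviation from its group mean was 0.245 and 0.218 (log2) in LITAF libraries 1 and 2, 0.0856 and 0.0899 in LITAF libraries 3 and 4. It was 0.0923 to 0.116 across H/R libraries, against 0.173 to 0.254 across control libraries. Without LITAF library 1, again none of the 40 genes passed against the H/R group; the smallest adjusted p was 0.0659 by edgeR, for Ero1b at log2 -0.51, against -0.28 with all libraries. None passed in any of the 8 fits that left out 1 library of these 2 groups.

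**Figure D4:**
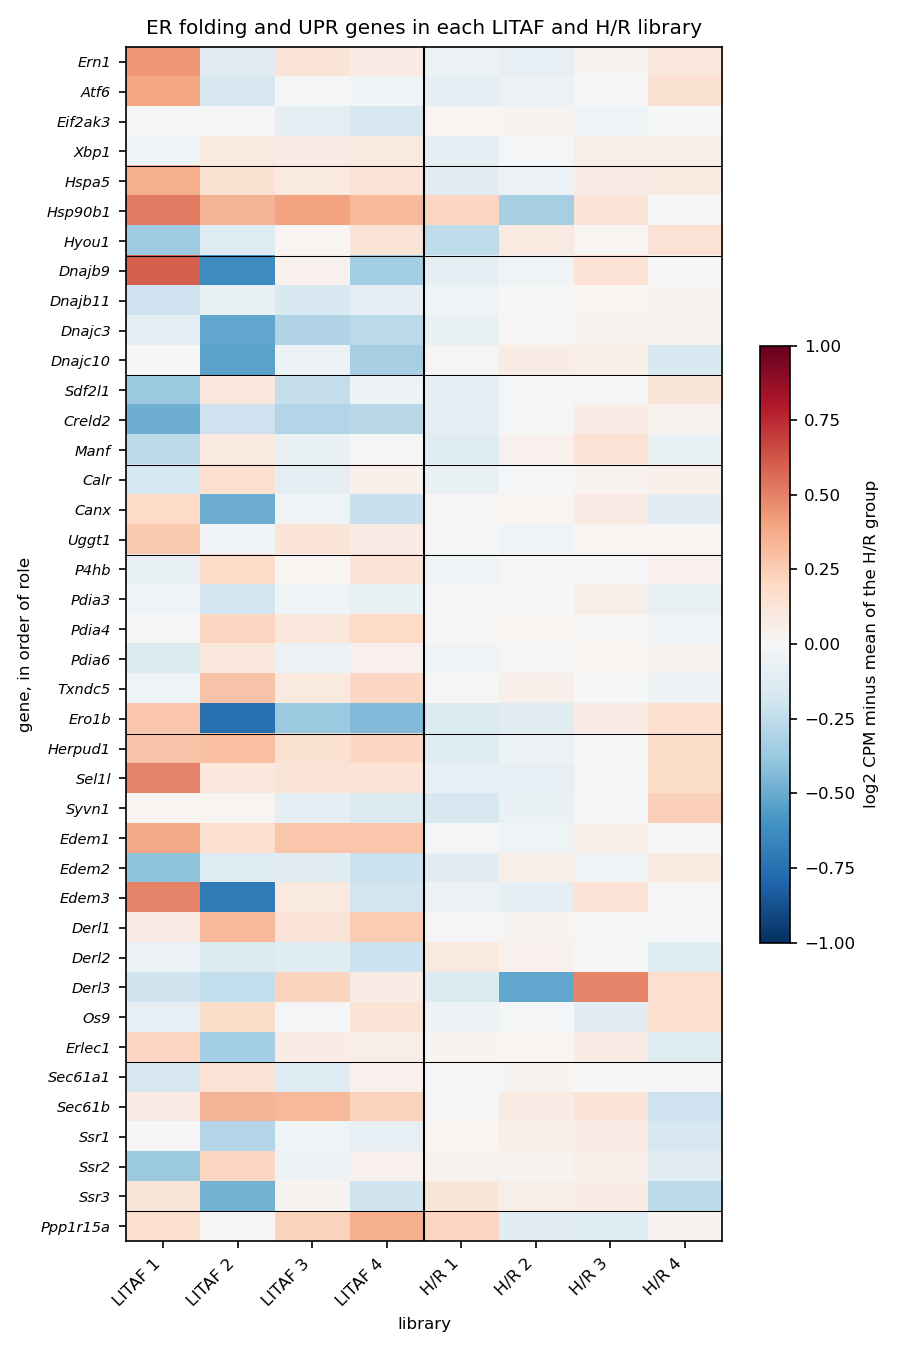
Log2 CPM of each of the 40 genes minus the mean of the H/R group, for the 4 LITAF libraries (left) and the 4 H/R libraries (right), with red above and blue below that mean and lines between roles. LITAF libraries 1 and 2 differ in sign for genes that include Dnajb9, Edem3, Canx, Ero1b and Ssr2. Hsp90b1 and Edem1 are among the genes that are red in all 4 LITAF libraries, and Creld2 and Dnajc3 are among those that are blue in all 4.

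Against control, the LITAF group had 31 of the 40 genes higher, 1 lower and 8 not passing, where 64.6% of all genes passed, 32% higher and 32.6% lower. This comparison shares its control libraries with that of the H/R group, so the values are given side by side. In the LITAF and the H/R group over control, Hspa5 was at log2 4.22 and 4.04, Xbp1 at 1.83 and 1.77, Creld2 at 3.52 and 3.83, and Dnajc10 at -1.41 and -1.19. Canx (log2 0.28, adjusted p = 0.079), Edem2 (0.05, adjusted p = 0.689) and Ssr3 (0.25, adjusted p = 0.143) were called in the H/R group over control and not here, by edgeR. Uggt1 was called here (log2 0.26, adjusted p = 0.0226 by edgeR) and not there. These differences between the groups are the LITAF over H/R values above, none of which passed. Without LITAF library 1, Edem3 passed as lower than control (log2 -0.43, adjusted p = 0.0365 by edgeR), and Canx passed as higher without control library 2 or 3 or LITAF library 2 (adjusted p = 0.0155 to 0.0493). Ssr3 passed without LITAF library 2 (adjusted p = 0.0421), Canx with library totals or upper-quartile scaling (adjusted p = 0.0294 and 0.0158) and Ssr3 with the second of these (adjusted p = 0.0359), all by edgeR. Uggt1 did not pass in the fit of the LITAF and control groups alone (adjusted p = 0.0681 by edgeR).

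Around the 40 genes, 121 further genes of the ER and early secretory pathway were tested in 7 lists. In the H/R group over control 73 rose (60.3%) and 14 fell (11.6%), against 31.8% of all genes in each direction, with a median log2 fold change of 0.48. Of 15 genes of unfolded protein response signalling 11 rose and 2 fell, with Trib3, a pseudokinase induced by ATF4, at log2 2.55 ± 0.12 and Serp1, which protects new membrane proteins, at 1.64 ± 0.12 (SE). Of 16 other oxidoreductases 9 rose and 4 fell, led by Ero1a, the paralog of Ero1b, at 2.68 ± 0.14 and Txndc11 at 1.74 ± 0.12. Of 18 other chaperones and prolyl isomerases 10 rose and 3 fell, led by Fkbp2 at 2.12 ± 0.13 and Nucb2 at 1.99 ± 0.10. Translocation and signal peptidase genes had 12 of 18 higher and none lower, led by Sec11c, a signal peptidase subunit, at 2.24 ± 0.12 and Ssr4, of the signal sequence receptor, at 1.22 ± 0.12. In glycosylation 10 of 17 rose and 2 fell, led by Ostc and Krtcap2, both of the oligosaccharyltransferase, at 1.59 ± 0.11 and 1.41 ± 0.11. Among other degradation genes 9 of 18 rose and 1 fell, led by Selenos and Selenok, both selenoproteins of the ER membrane, at 1.80 ± 0.13 and 1.63 ± 0.12. For ER to Golgi transport 12 of 19 rose and 2 fell, led by the cargo lectin Lman2 at 1.03 ± 0.12 and the retrieval receptor Kdelr3 at 0.86 ± 0.12.

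In the LITAF group over the H/R group, 3 of these 121 genes rose (2.48%) and none fell, where 3.73% of all genes rose and 1.15% fell. In alternatives added after seeing the data, each of the 3 calls was lost without one or another single library. Sec16a, which marks the sites where vesicles leave the ER, had 172, 147, 149.6 and 155 CPM in LITAF libraries 1 to 4 and 106, 105, 109 and 109.95 CPM in H/R libraries, against 88.3, 86.7, 86.8 and 133 CPM in control libraries. All 4 LITAF libraries were above all 8 others, and the difference from H/R was log2 0.54 ± 0.13 (SE; adjusted p = 0.0238 by edgeR). The call was lost without any 1 of the 4 H/R libraries or LITAF library 3 or 4 (adjusted p = 0.0501 to 0.0801), with log2 values of 0.53 to 0.56. Chac1, a glutathione-degrading enzyme induced through ATF4, had 215, 228, 218 and 229 CPM in LITAF libraries 1 to 4 and 157, 168, 160.1 and 180.2 CPM in H/R libraries, against 60.9, 66.5, 71.9 and 83.9 CPM in control libraries. The 3 groups did not overlap, and the LITAF over H/R difference was log2 0.42 ± 0.10 (SE; adjusted p = 0.0266 by edgeR). It was lost without H/R library 1, 2 or 3 or LITAF library 2, 3 or 4 (adjusted p = 0.0613 to 0.107) and with library totals (adjusted p = 0.0563). Qsox1, a secreted sulfhydryl oxidase, had 21.5, 25.8, 19.6 and 24.8 CPM in LITAF libraries 1 to 4 and 17.9, 16.5, 16.1 and 18.5 CPM in H/R libraries, against 30.6, 28.3, 29.5 and 27.8 CPM in control libraries. It was highest in control, fell in the H/R group, and was log2 0.41 ± 0.11 higher in the LITAF group than in the H/R group (SE; adjusted p = 0.0438 by edgeR). That call was lost without any 1 of the 4 H/R libraries or LITAF library 2 or 4 (adjusted p = 0.0684 to 0.156), with library totals or upper-quartile scaling (adjusted p = 0.0696 and 0.0624) and with no filter (adjusted p = 0.0644).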

How the data were processed

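RNA was measured in 12 libraries of H9C2 cells, 4 each in the LITAF, H/R and control groups, which were taken from the sample titles. The authors deposited expected counts per gene, raw read counts with Ensembl rat gene IDs per the file headers. Per the labels' protocols, polyadenylated RNA was captured on oligo(dT) beads, and the labels place all libraries in 1 batch. DESeq2 and edgeR were used per the submitters' processing notes, with no role stated. The aligner, counter, build, annotation and whether strand was used are, for these files, not given in the sources used, so overlapping genes and close paralogs or pseudogenes are uncertain.

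The table had 16204 rows, of which 258 shared an ID with another (128 IDs). Rows were kept once for 56 IDs with identical values, and 72 IDs whose rows differed, all in the control columns, were left out. Counts were rounded to whole numbers, filtered with filterByExpr (11398 genes), scaled by TMM and fitted in 1 model of all libraries with a mean per group (edgeR 4.0.16, limma 3.58.1, R 4.3.3; quasi-likelihood F-test, robust, two-sided, Benjamini-Hochberg adjustment, threshold 0.05). The common biological coefficient of variation was 14.5%. The model was also run on counts simulated gene by gene from its own fitted spread. Those counts hold no shifts shared across genes within a library, so the run cannot show how the model handles such shifts. Depth was 16.9 to 20.7 M counts per library, and counting error is largest for genes of few reads such as Derl3 and Ero1b.

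Replicate numbers are shared by the groups in the titles. Same-numbered H/R and control libraries deviated together (correlations of their deviations 0.40, 0.30, 0.44 and 0.57), so the numbers were taken to pair these groups. They did not pair LITAF with H/R libraries (0.07, 0.12, 0.20 and 0.05). The main model held no block, so its SE and adjusted p values for H/R over control do not use the pairing. The calls with the replicate block do use it, but that block was fitted over all 12 libraries. The LITAF libraries, which the numbers did not pair, thus also set the block terms. No paired fit of the H/R and control libraries alone was run. The alternatives were RLE, library total and upper-quartile scaling, DESeq2 1.42.0, no filter and a stricter filter, the replicate block, fits of 2 groups alone, leaving out each library, a threshold of 0.01, and keeping the first of repeated rows.

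The 40 genes, the lists and the roles were chosen with earlier results of these data known. Values in every library are given for Hspa5, Xbp1, Ern1, Atf6, Eif2ak3 and Ppp1r15a, for the genes with the largest and the smallest log2 fold change of each role in the H/R group over control, and for genes called in the LITAF over H/R comparison or in at least 2 of its alternatives. Hsp90b1 is also given in every library, chosen after its values were seen, and the other genes are given by their test or range. The 7 pathway lists name the 2 genes with the largest called change in H/R over control and the called genes in LITAF over H/R. Promoter sequences are from RefSeq, build GRCr8. Protein sequences were not used here. Not every promoter stretch with a match is reported here.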

Additional observations from a re-analysis of the deposited data

Results flagged for a closer look

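For each of the 40 genes in each of the 3 groups, 120 sets of 4 libraries, the gap between the highest or the lowest library and its nearest neighbour was divided by the range of the 4. In 4 sets this share was above Dixon's 95% critical value for 4 values, and chance alone flags about 1 in 20 sets. Sel1l, of the ubiquitin ligase core, was at 219.7 CPM in LITAF library 1, with the other LITAF libraries at 167 to 171 CPM. Edem1 was at 64.9 CPM in control library 4, with the other control libraries at 76.4 to 77.7 CPM. Ssr2 was at 95.6 CPM in H/R library 4, with the other H/R libraries at 106 to 107 CPM. Ssr3, also of the signal sequence receptor, was at 149 CPM in the same H/R library 4, with the others at 187 to 195 CPM.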

How the results depend on the processing

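In the H/R group over control, 30 to 34 of the 40 genes were called higher and 1 lower under the alternatives, and the genes that changed sides were those named above. With the replicate block, fitted over all 12 libraries, the calls of this comparison were 32 higher and 1 lower, and Edem2 alone lost its call. In the LITAF group over the H/R group, where the numbers pair no samples, the block called 1 gene higher (Hsp90b1, log2 0.40, adjusted p = 0.0378 by edgeR), and over all genes it called 873. The fit of these 2 groups alone called 1 higher (Edem1) and 1 lower (Creld2) of the 40 and 1098 of all genes. DESeq2 called 1 (Edem1) and 883. A threshold of 0.01 left 182 of all genes. Leaving out 1 library gave 244 to 1285 calls over all genes, with 1285 without LITAF library 1, 407, 322 and 244 without LITAF libraries 2, 3 and 4, and 272, 279, 244 and 365 without H/R libraries 1 to 4; none of the 40 genes was called in any of these. In the LITAF group over control, 1 to 2 genes were lower, with 2 without LITAF library 1. The cause of these changes was not tested. Differences near 0 that did not pass changed sign. For LITAF over H/R, Calr was at 0.0019 and Pdia6 at 4e-04 with RLE scaling, and at 0.0039 and 0.0018 without the filter; Erlec1 was at -0.033 with library totals and -0.0053 with upper-quartile scaling. With 1 library left out, log2 values ran from -0.078 to 0.065 for Calr, -0.057 to 0.052 for Pdia6, -0.040 to 0.11 for Erlec1, -0.27 to 0.15 for Dnajb9, -0.22 to 0.15 for Edem3, -0.25 to 0.14 for Derl3, -0.11 to 0.042 for Syvn1, -0.051 to 0.12 for Atf6, -0.16 to 0.021 for Hyou1, -0.12 to 0.027 for Manf, -0.090 to 0.046 for Sec61a1 and -0.12 to 0.093 for Ssr2. For H/R over control they ran from -0.031 to 0.22 for Erlec1 and -0.37 to 0.027 for Derl3, and for LITAF over control from -0.061 to 0.12 for Ssr1, -0.049 to 0.13 for Txndc5 and -0.018 to 0.24 for Erlec1. The stricter filter left out Derl3. For Pan2, below, log2 in H/R over control ran from -0.053 to 0.22 with 1 library left out. At this depth Derl3, with under 1 CPM in each group, has the widest interval of the 40 genes.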

Other observations

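Outside the 40 genes, 6 of 11990 genes with 1 promoter window held a full ERSE (0.05%), and 8 held an ERSE-II (0.0667%). Of the 6, 5 were tested. Zfand2a, a stress-induced zinc finger protein of the proteasome, was at log2 3.76 ± 0.14 (SE; adjusted p = 3.77e-12 by edgeR) in the H/R group over control and at log2 0.57 (adjusted p = 0.0144 by edgeR) in the LITAF group over the H/R group. The second call was lost without H/R library 3 (log2 0.55, adjusted p = 0.0613 by edgeR), in alternatives added after seeing the data. Zfp57 rose by log2 0.70 in the H/R group over control, Birc5 and Ppm1l were lower at log2 -0.95 and -0.74, and Pan2 did not pass at log2 0.04. Of the 8 genes with an ERSE-II, 5 were tested. Ggct and Nucb1, a calcium-binding protein, rose by log2 4.01 and 1.61 in the H/R group over control, Cdc45 and Cdc27 were lower at log2 -1.68 and -1.39, and Rnf151 did not pass at log2 0.29. Genes that hold these letters outside the 40 were thus higher and lower, and these values carry no test of the letters.

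Of the 121 genes of the surrounding lists, those that fell in the H/R group over control included Mbtps1, the Golgi protease that cuts ATF6, at log2 -0.92 ± 0.10 (SE; adjusted p = 4.93e-07 by edgeR), Uggt2, the paralog of Uggt1, at -0.998 ± 0.23, Hspa13, an HSP70 of microsomes, at -0.98 ± 0.16, and Tmx2, a membrane thioredoxin, at -0.85 ± 0.10. They were chosen after their values were seen. Mean CPM of Mbtps1 was 185 for LITAF and 166 for H/R libraries, against 312 for control libraries.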
